A study of Mus musculus with 25 samples.

Results

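A set of 10 genes commonly used to mark resting, or homeostatic, microglia was followed across injured mouse spinal cord and cultured astrocytes. The genes were P2ry12, P2ry13, Tmem119, Cx3cr1, Csf1r, Siglech, Gpr34, Sall1, Aif1 and Fcrls, chosen by symbol as known microglia genes. They were 10 of the 43693 genes listed for the sorted cells, and all 10 were found in each of the 4 count tables, which hold 25 libraries. A level is given as CPM, the usual depth-normalised count with the library scaled by trimmed mean of M values, and a change as a log2 difference ± SE. A gene rose, fell or was called where edgeR's quasi-likelihood test gave a Benjamini-Hochberg adjusted p under 0.05 over all genes tested.

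Microglia are the resident macrophages of the brain and spinal cord. In undisturbed tissue they hold a profile of surface receptors that sense nucleotides, chemokines and growth factors released by neighbouring cells, and signalling by transforming growth factor beta is known to maintain it. After injury or in disease microglia commonly lower several of these genes while they take up debris, and macrophages that enter from blood usually carry little of them, although they share Csf1r, Cx3cr1 and Aif1 with microglia. Astrocytes are a separate lineage, derived from neural progenitors and not from myeloid cells.

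The members include receptors of the purine group and their relatives. P2ry12, which senses ADP and steers microglial processes, is at chromosome 3, bases 59216272 to 59262871, minus strand (GRCm38). P2ry13, a second ADP receptor, lies beside it at 59207892 to 59210882 on the same strand, and Gpr34, a receptor for lysophosphatidylserine, at 13632089 to 13640858 on the plus strand of chromosome X. Cx3cr1, the fractalkine receptor, spans 119901616 to 120069879 on the minus strand of chromosome 9. Csf1r is the kinase receptor on which microglia depend for survival. Tmem119, a surface protein of unsettled function, is at chromosome 5, minus strand, bases 113793729 to 113800516. Siglech, a sialic acid binding lectin also made by plasmacytoid dendritic cells, lies on the plus strand of chromosome 7 at 55768178 to 55778925. Fcrls, an Fc receptor-like scavenger protein, is at chromosome 3, minus strand, bases 87250758 to 87263738. Sall1, a zinc finger transcription factor of microglial identity, is at chromosome 8, minus strand, bases 89027235 to 89044162. Aif1, which encodes the calcium-binding protein IBA1, is at chromosome 17, minus strand, bases 35170991 to 35176068.

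Sorted cells came from mice of genotype GFAP-Cre-/+:R26-tdT-/+, in which cells that express or once expressed the Gfap-driven Cre carry tdTomato, and tdTomato+ cells were taken by flow sorting after digestion and myelin removal. The sorted groups were sham (3 libraries, laminectomy alone at T9, taken at 7 days) and contusion of 60 kdyn at T9 taken at 7 days (3 libraries), 1 month (3) or 3 months (2, replicates 1 and 3). Whole spinal cord of C57BL/6 mice was taken at 1 month (3 libraries) and 3 months (3) after the same contusion, and each sorted or tissue library pooled 3 mice. Cultured astrocytes came from C57BL/6 brain at P4 to P7 and received control lentivirus or a knockdown virus, under puromycin at 1 µg/ml, with 2 libraries per group. Selection began at 24 hours in the Zeb2os set, for which the labels give 5 days in one place and 3 in another, and at 48 hours for 3 days in the Zeb2 set, so levels of the 2 sets are only set side by side. The groups labelled WT and Zeb2os -/- form one set and those labelled WT and Zeb2 -/- the other, although both knockdowns were made by virus. For the Zeb2os set the labels describe overnight shaking to remove microglia and other loose cells. Sham cells were taken at 7 days only, so at the later times age and the interval since surgery differ from sham too.

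Depth was 15.7 to 50.2 M counts (M, mega) in sorted libraries, 15.4 to 27.1 in tissue, 45.6 to 158.1 in the Zeb2os set and 29.0 to 65.4 in the Zeb2 set. The sorted cells held markers of several types. Gfap, the astrocyte filament gene, was at 166 to 354 CPM in sham cells and 1135 to 1440 in sorted cells at 7 days. Sorted cells held 197 to 264 CPM of it at 1 month and 168 and 177 at 3 months, and tissue at these times 5881 to 9056. Sorted cells and tissue were scaled separately, and there was no sham tissue. Pdgfra, the receptor of oligodendrocyte precursors, was at 1499 to 2768 CPM in sorted cells and 54.8 to 81.1 CPM in tissue. Lymphocyte markers were low in sorted cells, with Cd3e at 0 CPM in 7 of 11 libraries, and 6 dendritic cell genes summed to 5.21 to 20.3 CPM in sham and 7.86 to 13.2 CPM after injury, the range in which Siglech also lay in several libraries. Immediate early genes, 8 genes that rise within minutes of stress or tissue handling, summed to 11000 to 23308 CPM in sham and 6274 to 6607 (7 days), 13832 to 16547 (1 month) and 17653 to 19097 (3 months) in injured sorted cells and to 185 to 317 CPM in tissue. Their part in the results below was not tested.

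For 7 of the members RefSeq gives a promoter window on GRCm38.p6. It gives none for Tmem119, Csf1r and Gpr34. Shown are windows of P2ry13, Siglech and Sall1 that lie clear of annotated exons, the first 2 because these genes rose between 7 days and 3 months in sorted cells, and Sall1 because it was the member that fell against sham. Capitals mark GAGGAA, a core of the PU.1 site, and TGTGGT, a core of the RUNX site, or their reverse complements TTCCTC and ACCACA. Both strands were searched, and the letters of the 2 motifs do not overlap here.
P2ry13, chr3:59210883-59211132, minus strand: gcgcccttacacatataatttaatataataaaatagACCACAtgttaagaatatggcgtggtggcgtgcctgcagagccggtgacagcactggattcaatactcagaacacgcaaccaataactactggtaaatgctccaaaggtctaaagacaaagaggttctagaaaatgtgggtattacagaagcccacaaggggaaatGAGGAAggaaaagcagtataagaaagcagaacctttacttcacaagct
Siglech, chr7:55767934-55768177, plus strand: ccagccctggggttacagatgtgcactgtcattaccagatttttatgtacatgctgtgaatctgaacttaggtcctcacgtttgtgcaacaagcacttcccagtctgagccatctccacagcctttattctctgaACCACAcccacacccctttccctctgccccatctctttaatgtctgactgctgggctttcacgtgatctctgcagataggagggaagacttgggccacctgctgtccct
Sall1, chr8:89044163-89044412, minus strand: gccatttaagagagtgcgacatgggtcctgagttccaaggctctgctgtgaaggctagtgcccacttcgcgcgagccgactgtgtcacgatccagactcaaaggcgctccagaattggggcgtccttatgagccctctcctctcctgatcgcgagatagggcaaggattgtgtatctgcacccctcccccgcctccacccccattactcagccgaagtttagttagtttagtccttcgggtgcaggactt

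The P2ry13 window held GAGGAA at 48 bases and ACCACA at 214 bases before the RefSeq start, the Siglech window held ACCACA at 115 bases, and the Sall1 window held neither. Windows were 250 bases long. Siglech is shown as 244 bases because the last bases of its window are annotated as exon. Its distance is counted to the RefSeq start, which lies past the end of the printed sequence. Among all 32851 windows of that table, 23.3% held GAGGAA or its complement and 14% held TGTGGT or its complement. GAGGAA was present in P2ry13, Aif1 and Fcrls, and TGTGGT in P2ry13, Cx3cr1, Siglech and Fcrls. A match describes the letters of the window and is not a bound site.

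All 10 genes were detected in every sorted library, and the sham libraries stood apart from each other. Csf1r was at 579, 181 and 102 CPM in sham replicates 1, 2 and 3, Cx3cr1 at 244, 75.7 and 60.0, and P2ry12 at 104, 30.6 and 29.1. Sham replicate 1 was the highest for all 10 genes, from 1.91 times replicate 3 for Sall1 to 8.67 times for Gpr34. The 10 genes together summed to 1497, 513 and 385 CPM in the 3 sham libraries. A reference set of 9 leukocyte genes that are not members (Tyrobp, Fcer1g, Laptm5, Spi1, Itgam, Cd53, Ctss, Ptprc and Coro1a) summed to 745, 247 and 201 CPM in the same libraries. The part of myeloid RNA in this spread was not tested. The number of members called against sham is given with and without replicate 1, as are the changes or calls of some members.

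**Figure D1:**
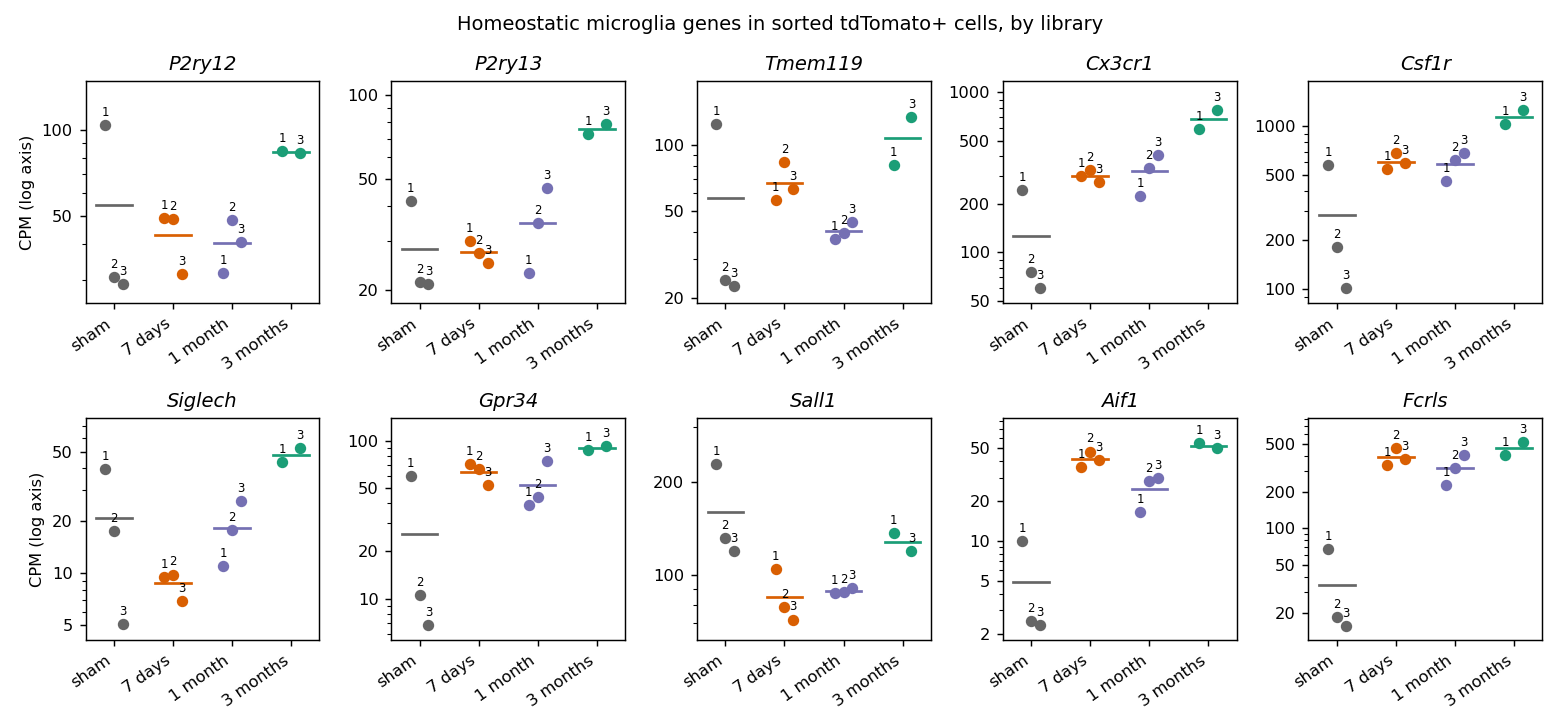
Level of each of the 10 genes in the 11 sorted libraries, in CPM on a log axis, by group. Points are libraries with their replicate number and bars are group means. Sham replicate 1 is the highest sham library in every panel. The 3-month libraries overlap another group of injured cells for Tmem119 and Fcrls.

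Against sham the genes split. At 7 days after injury Fcrls, Aif1 and Cx3cr1 rose and Sall1 fell, which is 4 of 10 members where 18.3% of all 24286 genes were called (9.87% higher and 8.41% lower). At 1 month the same 4 genes were called in the same directions, against 12.1% of all genes (6.23% higher and 5.83% lower). At 3 months Fcrls, Aif1, Cx3cr1, Csf1r and P2ry13 rose and none fell, against 11.7% of all genes (6.78% higher and 4.93% lower). The median change of the members was 0.66, 0.66 and 1.61 at 7 days, 1 month and 3 months, and that of all genes −0.06, −0.02 and −0.1. These 3 comparisons share the sham libraries. Without 7-day replicate 2 or 3, 2 members were called at 7 days, where 2867 of 24012 and 3217 of 24094 genes were. Without 1-month replicate 2 or 3, 2 members were called at 1 month, where 1806 of 24016 and 1727 of 23963 genes were. In such bulk libraries fewer cells of a type and less RNA per cell cannot be told apart, so a change describes the RNA of the sorted fraction. Without sham replicate 1 the members called were 6 higher and 1 lower at 7 days (22.9% of all genes called), 6 higher and 0 lower at 1 month (14.4%) and 9 higher and 0 lower at 3 months (14.7%).

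**Figure D2:**
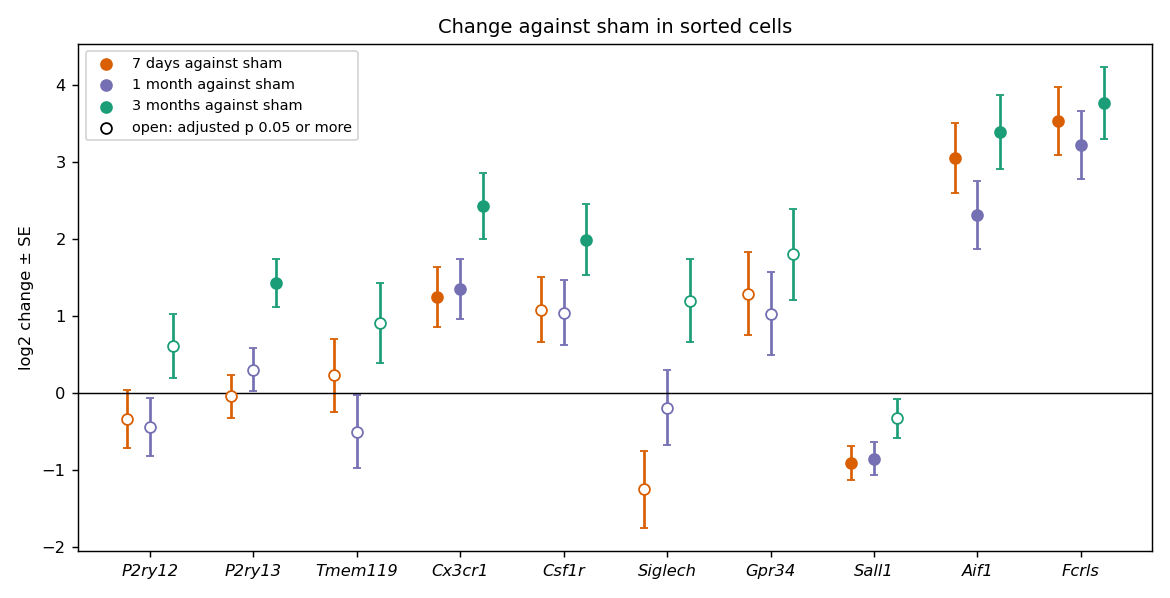
Log2 change ± SE of each gene in sorted cells at 7 days, 1 month and 3 months against sham, from edgeR. Filled points passed an adjusted p of 0.05 and open points did not; Aif1 and Fcrls lie above 2 at every time, and P2ry12, P2ry13, Tmem119 and Siglech lie near or below 0 at 7 days.

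Among the ADP receptors and Gpr34, P2ry13 alone was called, and only at 3 months. P2ry12 was at 49.1, 48.8 and 31.5 CPM at 7 days, 31.7, 48.3 and 40.7 at 1 month and 84.5 and 82.7 at 3 months. Both 3-month values lay above 2 of the sham libraries and below replicate 1, and the injured groups overlapped sham at every time. P2ry12 differed from sham by −0.34 ± 0.38 at 7 days, −0.44 ± 0.38 at 1 month and 0.61 ± 0.42 at 3 months (edgeR adjusted p = 0.620, 0.528 and 0.377). The direction at the first 2 times turned without sham replicate 1 (0.53 and 0.43, edgeR adjusted p = 0.111 and 0.237), and the 3-month change was then called (1.48, adjusted p = 0.000719).

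P2ry13 was at 41.9, 21.4 and 21.1 CPM in sham, 30.1, 27.3 and 25.1 at 7 days, 23.1, 34.8 and 46.4 at 1 month and 72.6 and 79.0 at 3 months. Its 3-month libraries lay above every other sorted library. It rose by 1.43 ± 0.31 at 3 months against sham (edgeR adjusted p = 0.00597, 0.0508 without 3-month replicate 3). Gpr34 was at 59.3, 10.6 and 6.84 CPM in sham, 71.3, 65.8 and 52.3 at 7 days, 39.2, 43.8 and 74.4 at 1 month and 87.3 and 91.8 at 3 months. Sham replicate 1 lay inside the range of the 7-day and 1-month groups, and the 3-month libraries lay above all of sham. Its differences from sham, 1.29 ± 0.54, 1.03 ± 0.54 and 1.80 ± 0.59, were not called (edgeR adjusted p = 0.122, 0.259 and 0.0619). Each was called without sham replicate 1 (adjusted p = 8.7e-06, 3.1e-05 and 3.6e-06).

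Cx3cr1, the fractalkine receptor, rose at all 3 times in the edgeR fit, and the first 2 calls were not stable. It was at 302, 328 and 277 CPM at 7 days, 225, 337 and 404 at 1 month and 591 and 778 at 3 months, against 244, 75.7 and 60.0 in sham. The 7-day and 3-month libraries lay above every sham library, and 1-month replicate 1 lay below sham replicate 1. The changes were 1.25 ± 0.39, 1.35 ± 0.39 and 2.43 ± 0.43 (edgeR adjusted p = 0.0344, 0.0339 and 0.00140). The 7-day call was lost when sham replicate 2 or 3 or any one 7-day library was left out (adjusted p = 0.117, 0.100, 0.0728, 0.103 and 0.0633), and the 1-month call without sham replicate 2 or 3 or 1-month replicate 2 or 3 (0.111, 0.0860, 0.103 and 0.152). Both calls were also lost with DESeq2 (adjusted p = 0.0583 and 0.0518) and with the 2 groups fitted alone by edgeR (0.0994 and 0.0896). The change at 7 days was 2.15 without sham replicate 1.

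Csf1r rose at 3 months. It was at 550, 683 and 592 CPM at 7 days, 462, 623 and 684 at 1 month and 1031 and 1256 at 3 months. Sham replicate 1, at 579 CPM, lay among the 7-day and 1-month libraries, and both 3-month libraries lay above all of sham. The change was 1.08 ± 0.42 at 7 days and 1.04 ± 0.42 at 1 month (edgeR adjusted p = 0.0941 and 0.136) and 1.99 ± 0.46 at 3 months (0.00997, 0.0678 without 3-month replicate 3 and 0.106 with the 2 groups fitted alone). Without sham replicate 1 the first 2 were called (adjusted p = 2.1e-05 and 4.1e-05). Csf1r shares 15.1% of its exon bases with Hmgxb3 on the opposite strand, and the strand setting of the counting is not given in the sources used here, so its counts are uncertain by that overlap.

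The surface proteins moved apart. Fcrls was at 67.4, 18.5 and 15.7 CPM in sham, 337, 464 and 375 at 7 days, 228, 318 and 404 at 1 month and 403 and 517 at 3 months. Every injured library lay above every sham library. Fcrls rose by 3.53 ± 0.44, 3.22 ± 0.44 and 3.76 ± 0.47 (edgeR adjusted p = 5.6e-05, 0.000194 and 6.6e-05), which is 11.5, 9.31 and 13.5 times sham, and it was called under all alternatives run at each time.

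Tmem119 was at 124, 24.2 and 22.7 CPM in sham, 55.8, 83.1 and 62.5 at 7 days, 37.1, 39.6 and 44.5 at 1 month and 81.0 and 134 at 3 months. The injured groups lay between sham replicate 1 and the other sham libraries, apart from 3-month replicate 3. Its differences from sham, 0.23 ± 0.47, −0.50 ± 0.47 and 0.91 ± 0.52, were not called (edgeR adjusted p = 0.808, 0.578 and 0.292), and without sham replicate 1 all 3 were called higher (adjusted p = 0.000251, 0.0315 and 2.4e-05). Siglech was at 39.6, 17.4 and 5.08 CPM in sham, 9.51, 9.80 and 6.93 at 7 days, 11.0, 17.6 and 26.1 at 1 month and 43.6 and 52.3 at 3 months. It was low in all 7-day libraries and highest in the 3-month libraries, which lay above all of sham. Its differences from sham, −1.25 ± 0.50, −0.19 ± 0.49 and 1.20 ± 0.54, were not called (edgeR adjusted p = 0.103, 0.871 and 0.176). The 7-day difference was called without sham replicate 3 (0.00337) and the 3-month difference without sham replicate 1 (0.00842). Without sham replicate 1 the 7-day difference of Siglech was −0.38 and not called (edgeR adjusted p = 0.575).

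Sall1 was the one member that fell. It was at 228, 131 and 119 CPM in sham, 104, 78.7 and 71.6 at 7 days, 87.0, 88.2 and 90.4 at 1 month and 136 and 119 at 3 months. The 7-day and 1-month libraries all lay below every sham library, and the 3-month libraries overlapped sham. The change was −0.91 ± 0.22 at 7 days and −0.85 ± 0.22 at 1 month (edgeR adjusted p = 0.00879 and 0.0194), and −0.33 ± 0.25 at 3 months (0.440). The 7-day call was lost without 7-day replicate 2 or 3 (0.0601 and 0.0662) and with the 2 groups fitted alone (0.0533), and the 1-month call without sham replicate 1 (0.0595) or 1-month replicate 1, 2 or 3 (0.0717, 0.0916 and 0.0718). The 10 astrocyte genes summed to 4216 to 5557 CPM in sham and then to 2398 to 2844 (7 days), 1337 to 1443 (1 month) and 1198 to 1248 (3 months). Of these, 8 fell at each time against sham and only Gfap rose, at 7 days (Gfap was at 1236, 1440 and 1135 CPM then). Their part in the Sall1 values was not tested.

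Aif1 was at 9.98, 2.48 and 2.30 CPM in sham, 36.1, 47.4 and 40.6 at 7 days, 16.6, 28.2 and 29.7 at 1 month and 54.6 and 50.4 at 3 months. Every injured library lay above every sham library. Aif1 rose by 3.05 ± 0.45, 2.31 ± 0.44 and 3.39 ± 0.48 (edgeR adjusted p = 0.000208, 0.00241 and 0.000206) and was called under all alternatives run at each time.

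A list of 22 ligands, transcription factors and related genes, which also holds the receptor P2ry6, mostly rose in sorted cells. At 7 days 17 rose and 1 fell, at 1 month 18 rose and 1 fell, and at 3 months 17 rose and none fell. Of all genes 9.87%, 6.23% and 6.78% were called higher at these times. The part of leukocyte RNA in these changes was not tested. Csf1, a ligand of Csf1r, rose by 1.40 ± 0.18 at 7 days and 1.82 ± 0.20 at 3 months (edgeR adjusted p = 8.2e-05 and 2.1e-05), and Il34, its second ligand, by 1.59 ± 0.29 and 2.70 ± 0.32 (0.00114 and 4.3e-05). Cx3cl1, fractalkine, fell by 1.90 on the log2 scale at 7 days (edgeR adjusted p = 4.6e-06) and was at 102, 87.0 and 119 CPM in sham against 28.1, 22.4 and 32.0 then. At 1 month it was at 57.1, 52.8 and 51.8 CPM and at 3 months at 73.0 and 69.9, also below every sham library. Neurons are known to make fractalkine. Of 6 neuron markers, the 5 listed for all libraries summed to 63.8 to 106 CPM in sham and 21.5 to 23.3 at 7 days. Their sum was 53.4 to 77.4 at 1 month and 60.8 to 73.9 at 3 months. The median change of the 6 was −1.85 at 7 days, with 2 called lower and 1 higher. The part of neurons in the Cx3cl1 values was not tested. So the level of the fractalkine gene was lower in every 7-day library than in any sham library, while its receptor gene was higher. Among the 22 genes the largest changes at 7 days were in Runx1, a transcription factor of blood lineages (2.95 ± 0.51), Tgfb1 (2.50 ± 0.41) and the UDP receptor P2ry6 (2.39 ± 0.43). Csf1, Il34 and Cx3cl1 were singled out as the ligands of members after their values were seen.

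Lists of leukocyte and phagocyte genes had larger median changes than the members, and the further microglia genes did not. Of 16 further microglia genes, 4 rose and 2 fell at 7 days (median 0.56) and 8 rose and 1 fell at 3 months (median 1.60). Among these at 7 days were Hpgds (2.05 ± 0.33) and Olfml3 (1.94 ± 0.28). All 10 leukocyte genes listed (the 9 above and Cyba, tested in sorted cells) rose at 7 days and 3 months (medians 2.34 and 3.42), as did 19 of 19 measured genes of phagocyte activation (medians 2.63 and 4.02), led at 7 days by Spp1 (8.81 ± 0.40) and Gpnmb (8.67 ± 0.68). Of 15 genes of blood-derived macrophages, 8 rose at 7 days (median 3.82), 5 at 1 month (1.08) and 6 at 3 months (2.60). The other 7, 10 and 9 were not called. Their sum was 52.8 to 91.0 CPM in sham against 2494 to 4603 (7 days), 1272 to 1820 (1 month) and 3753 to 4230 (3 months). Lyz2 alone made up most of the sums after injury. It was at 1899, 3568 and 2848 CPM (7 days), 1029, 1261 and 1499 (1 month) and 3237 and 3662 (3 months). Endothelial and fibroblast or mural markers rose as well. Of 6 endothelial genes 6, 4 and 5 rose at the 3 times (sum 48.2 to 143 CPM in sham, 350 to 438 at 7 days), and of 6 fibroblast and mural genes 4 rose at each (127 to 392 CPM in sham, 2306 to 2638 at 7 days, median change then 2.96). The part of any of these cells in the changes of the members was not tested.

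Expressed relative to the leukocyte genes of the same library, most members lay lower after injury than in sham, as most genes did. The measure is the log2 CPM of a gene minus the mean log2 CPM of the 9 leukocyte genes. P2ry12 was at 1.02 to 1.18 in sham against −2.01 to −1.14 (7 days), −2.02 to −1.44 (1 month) and −1.81 to −1.42 (3 months). The members lower than sham in every library numbered 7 at 7 days, 8 at 1 month and 8 at 3 months, where 75.3%, 69.7% and 84.1% of all genes were, shares near those of the members. Being higher than sham in every library was rarer, at 1.11%, 0.918% and 0.828% of all genes. Fcrls was higher at all 3 times (1.56 to 1.66, 1.27 to 1.30 and 0.83 to 0.84, with 0.24 to 0.56 in sham) and Aif1 at 7 days. On the same measure 5 members (Tmem119, Csf1r, Gpr34, Aif1 and Fcrls) were lower in every 3-month than in every 7-day library, as were 62% of all genes, and Siglech was higher, as were 3.54%. Against 1 month Fcrls was lower at 3 months (58.4% of all genes) and Cx3cr1 and Siglech higher (1.68%). In tissue Fcrls was lower at 3 months than at 1 month, as were 0.646% of all genes, and Sall1 higher, as were 78%. These orders depended on the reference. With Ctss and the 3 C1q genes in its place, chosen after seeing the data, Fcrls was lower than sham in both 3-month libraries. Its difference of means was then −0.28, against 0.47 with the 9 genes. In tissue Fcrls was then not lower at 3 months, and members beside Sall1 were higher. The share of all genes was not measured with that reference. Fcrls at 7 days and 1 month and Aif1 at 7 days were higher than sham with both references.

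**Figure D3:**
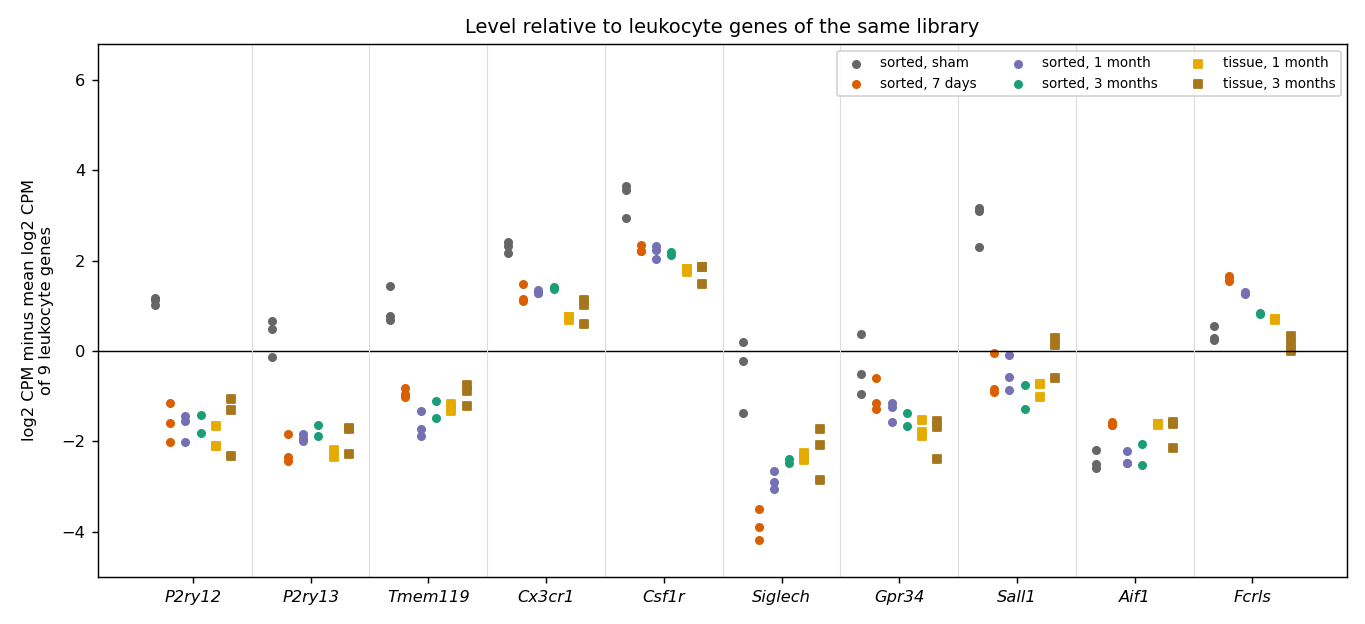
Log2 CPM of each gene minus the mean log2 CPM of 9 leukocyte genes of the same library, in sorted cells (circles) and tissue (squares), one point per library. P2ry12 lies above 0 in sham and below 0 in every injured library, while Fcrls and Aif1 at 7 days lie above their sham libraries.

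Ratios between some of the members changed after injury. Per kb of exons and relative to P2ry12 of the same library, Fcrls stood at 0.590 to 0.707 in sham, and at 7.48 to 13, 7.19 to 10.8 and 5.21 to 6.82 at the 3 injured times in order. The same ratio for Aif1 was 0.131 to 0.160 in sham and 0.873 to 2.14 over the injured sorted libraries. For Cx3cr1 it was 1.17 to 1.40 in sham and 3.48 to 5.62 after injury. None of these ranges overlapped sham, although sham replicate 1 differed from the other sham libraries in level. For Tmem119 the ratio was 0.857 to 1.31 in sham and 0.903 to 1.29 at 1 month, which overlap. A ratio shows unequal change and not which gene changed.

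The order of the members per kb of exons also shifted. In sham Csf1r was first at 49.8 ± 44.3 CPM per kb (SD, n = 3) and Aif1 last at 3.21 ± 2.86, and every neighbour in the order overlapped the next. At 7 days Fcrls (168 ± 27.9), Csf1r (105 ± 11.8) and Cx3cr1 (67.1 ± 5.63) led in that order with separate ranges, and Siglech was last (2.59 ± 0.467). At 3 months Csf1r (198 ± 27.6, n = 2) and Fcrls (197 ± 34.3) overlapped, Cx3cr1 followed (152 ± 29.3) with a separate range, and Sall1 (24.1 ± 2.29) and Siglech (14.2 ± 1.83) closed the order. In tissue Fcrls and Csf1r led at both times with overlapping ranges, at 3 months Fcrls also overlapped Cx3cr1, and Siglech was last.

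Between the injured times, P2ry13 and Siglech rose in sorted cells from 7 days to 3 months. No member was called at 1 month against 7 days, where edgeR called 2.61% of all genes (1.52% higher and 1.09% lower). There 1 member had an unadjusted p under 0.05 and DESeq2 called 0. With edgeR 2 were called without the filter on low counts (1406 of 32018 genes) and 3 with these 2 groups fitted alone (17.2% of all genes). From 7 days to 3 months P2ry13 rose by 1.46 ± 0.31 and Siglech by 2.45 ± 0.55 (edgeR adjusted p = 0.0103 and 0.0151), 2 of 10 members where 6.05% of all genes were called (2.53% higher and 3.52% lower). Both 3-month libraries of each gene lay above all 7-day libraries. All 10 members had a positive difference, with a median of 0.79 against 0.0 for all genes. Leaving out 7-day replicate 2 or 3 or 3-month replicate 3 ended the P2ry13 call (0.0533, 0.0577 and 0.0758), and leaving out any 7-day library or 3-month replicate 3 ended the Siglech call (0.0544, 0.0596, 0.0772 and 0.0799), so the count was then 0 or 1. Without the filter on low counts 5 were called (2464 of 32018 genes), as with these 2 groups alone (17.4% of all genes).

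From 1 to 3 months all 10 members were higher in the mean of sorted cells, and none was called by edgeR. The differences ran from 0.52 ± 0.24 for Sall1 to 1.41 ± 0.52 for Tmem119, with a median of 1.07 against 0.0 for all genes. The libraries of the 2 times overlapped for Fcrls, at 228, 318 and 404 CPM at 1 month and 403 and 517 at 3 months. Only 0.387% of all genes were called in that comparison. An unadjusted p under 0.05 was found for 7 members and for 11.8% of all genes. DESeq2 called 1 member (851 of 32018 genes). EdgeR called 7 without the filter on low counts (749 of 32018 genes) and 8 with these 2 groups fitted alone (5.86% of all genes).

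In whole tissue the genes went the other way. From 1 to 3 months 8 of 10 members fell and none rose, where 14.7% of all 19652 genes were called, 6.69% higher and 8.01% lower. The 2 that were not called were P2ry12 (edgeR adjusted p = 0.0860) and Sall1 (0.262), and the median change was −0.75 against −0.0 for all genes.

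Fcrls was at 202, 247 and 192 CPM at 1 month and 93.0, 65.5 and 79.0 at 3 months. All 3-month libraries lay well below all 1-month libraries, and Fcrls had the largest fall of the members, at −1.43 ± 0.14 (edgeR adjusted p = 0.00312). Aif1 went from 40.9, 49.1 and 38.0 to 21.1, 20.0 and 20.3 CPM, a change of −1.06 ± 0.10 (0.00296). Gpr34 went from 34.0, 44.2 and 40.5 to 17.8, 20.3 and 19.3 CPM, a change of −1.05 ± 0.11 (0.00326). Csf1r went from 436, 517 and 411 to 261, 215 and 227 CPM, a change of −0.96 ± 0.11 (0.00439). The 2 groups did not overlap for these 4 genes, and each was called under all alternatives run.

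Smaller falls were measured in Siglech, Cx3cr1, Tmem119 and P2ry13. Siglech went from 24.9, 28.9 and 24.2 to 12.8, 17.7 and 14.5 CPM (−0.79 ± 0.13, edgeR adjusted p = 0.0125). Cx3cr1 went from 210, 246 and 195 to 142, 121 and 137 CPM (−0.70 ± 0.10, 0.00847). Again no library of one time reached the range of the other. Tmem119 went from 55.2, 61.2 and 48.9 to 40.2, 32.2 and 37.1 CPM (−0.59 ± 0.11, 0.0161). P2ry13 went from 24.6, 30.6 and 25.2 to 19.1, 17.8 and 19.0 CPM (−0.52 ± 0.10, 0.0180). P2ry12 went from 28.9, 35.8 and 36.8 to 18.6, 28.6 and 25.0 CPM, which did not overlap, while Sall1, at 75.1, 76.0 and 70.2 and then 61.7, 72.0 and 68.3 CPM, did. The smaller falls were the ones that depended on single libraries. Without 1-month replicate 1 the calls of P2ry13, Tmem119, Cx3cr1 and Siglech were lost (0.0645, 0.0839, 0.0544 and 0.0643). Without 1-month replicate 2 (0.0566, 0.0676 and 0.0595) or 3-month replicate 3 (0.0635, 0.0601 and 0.0552) those of P2ry13, Tmem119 and Siglech were lost. That left 4, 5 and 5 members called, where 305 of 20407, 573 of 20367 and 734 of 19566 genes were.

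Other myeloid genes fell beside them. In tissue 9 of 16 further microglia genes fell (median −0.66), among them Ltc4s (−1.27 ± 0.16, edgeR adjusted p = 0.00611), as did 6 of 9 leukocyte genes (median −0.79) and 18 of 19 genes of phagocyte activation (median −1.22). Of 15 genes of blood-derived macrophages 2 fell, Lyz2 and Ms4a7, and 1 rose, Chil3, while 4 of 6 neutrophil genes rose, with S100a8 at 9.80, 21.9 and 16.8 CPM at 1 month and 559, 70.1 and 65.8 at 3 months. Csf1 fell by 0.65 on the log2 scale (edgeR adjusted p = 0.00421), and Il34 and Cx3cl1 differed by −0.18 ± 0.11 and 0.02 ± 0.09 (0.301 and 0.930). The part of neutrophil RNA in the falls of the members was not tested.

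The late change had opposite signs in sorted cells and tissue, and the difference was tested in 1 fit over the 11 libraries of both kinds at both times. The change in sorted cells minus that in tissue was above 0 and called for 10 of 10 members, where 14.0% of all 23259 genes were called, 5.92% in that direction and 8.08% in the other. It was largest for Siglech (2.11 ± 0.36), Aif1 (2.07 ± 0.27) and Tmem119 (1.93 ± 0.24) and smallest for Sall1 (0.58 ± 0.13), with edgeR adjusted p from 0.000823 for Csf1r to 0.0132 for Sall1. The median was 1.79 for the members against −0.08 for all genes. Of the 9 leukocyte genes measured 8 had a called positive difference, as had 18 of 19 genes of phagocyte activation and 12 of 16 further microglia genes. Sorted and tissue libraries differ in sort, digestion, mouse line and table, which cannot be told apart, and the fit assumes that both kinds vary alike. With limma voom and a weight for each kind of library, 9 of 10 members were called (5.41% of all genes) and Sall1 was not (adjusted p = 0.0739).

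**Figure D4:**
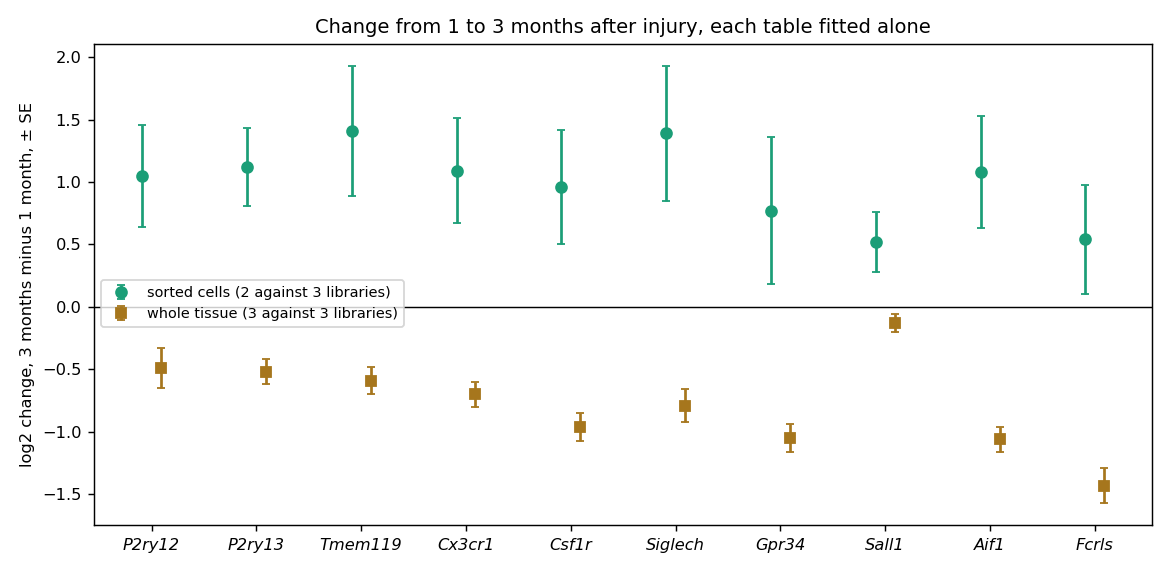
Log2 change ± SE of each gene from 1 to 3 months after injury in sorted cells (circles, 2 against 3 libraries) and whole tissue (squares, 3 against 3), each table fitted alone with edgeR. All sorted values lie above 0 and all tissue values below 0, and the sorted values have the wider errors.

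In the same fit, 7 of 10 members were not called between sorted cells and tissue at 1 month. Cx3cr1 was higher in sorted cells (0.46 ± 0.17, edgeR adjusted p = 0.0436), and Tmem119 (−0.55 ± 0.16, 0.0149) and Aif1 (−0.88 ± 0.18, 0.00161) were lower, 3 of 10 members where 51.5% of all genes were called. The Cx3cr1 call was lost without sorted 1-month replicate 2 or 3 or tissue 1-month replicate 1 or 3 (0.101, 0.176, 0.114 and 0.143) and with limma voom and weights by kind of library (0.0531), where Siglech was called lower instead (0.0274). The Tmem119 call was lost without tissue 1-month replicate 2 (0.0625). Without sorted 1-month replicate 1, P2ry13, Csf1r and Fcrls were called higher as well (0.0142, 0.0182 and 0.00952). Then 6 members were called, where 11959 of 22609 genes were. Without sorted 1-month replicate 3, Siglech was called (0.00378), and without tissue 1-month replicate 2, Fcrls was (0.0466).

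At 3 months all 10 members were higher in sorted cells than in tissue, where 50.7% of all genes were called and 22.5% were higher. The difference ran from 0.74 ± 0.09 for Sall1 and 1.19 ± 0.20 for Aif1 to 2.36 ± 0.21 for Fcrls, with Cx3cr1 at 2.18 ± 0.19 and Csf1r at 2.11 ± 0.15 (edgeR adjusted p of 0.000687 or less). Every member remained called under all alternatives run. For comparison, 10 of 10 astrocyte genes were lower in sorted cells at both times and 7 of 7 genes of oligodendrocyte precursors were higher. At 3 months 8 of 9 leukocyte genes (median 1.91) and 18 of 19 genes of phagocyte activation (1.99) were higher too. So were 12 of 16 further microglia genes (1.58), and the median of the members was 1.73. In each of the last 2 lists 1 gene was lower.

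The genes whose pattern over the 11 sorted libraries was most like the median pattern of the members were looked up among 13753 other genes of at least 5 CPM. Likeness was the root mean square difference of log2 CPM, each gene centred on its own mean, over these 11 libraries, which also share the spread within sham. The nearest were Slco2b1 (0.208), Fgd2 (0.226), Rps6ka1 (0.244), Ppfia4 (0.252), Dock8 (0.265), Lair1 (0.275), Myo1e (0.278), Lgmn (0.279), Arhgap4 (0.282) and Ttc7 (0.286). Slco2b1, an organic anion carrier and one of the 16 further microglia genes, averaged 53.0 CPM in sham, 102 at 7 days, 128 at 1 month and 219 at 3 months. Of the members, Csf1r (0.168) and Cx3cr1 (0.251) lay closest to the median pattern and Sall1 (1.01) and Fcrls (1.11) farthest.

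The cultures labelled as astrocytes held a few of the genes and nearly lacked the rest. The cultures also held markers of other cell types. Fibroblast and mural genes summed to 3127 to 3716 CPM in Zeb2os controls and 3165 to 7404 in Zeb2 controls. Astrocyte genes summed to 1175 to 1263 and 780 to 1277 CPM in the same controls, and leukocyte genes to 67.0 to 86.5 and 14.5 to 35.2. Which cells of the cultures carried the members was not tested. In the Zeb2os set Tmem119 was at 35.8 and 28.4 CPM in control and 32.7 and 34.3 in knockdown libraries, and in the Zeb2 set at 9.40 and 5.32 and then 2.75 and 3.50. Sall1 was at 26.4 and 41.6 CPM in the Zeb2os controls and 22.6 and 19.4 in the knockdown, and at 53.2 and 52.8 and then 84.1 and 50.9 in the Zeb2 set. These 2 genes led the order per kb in all 4 culture groups, apart from Tmem119 against Fcrls in the Zeb2 knockdown, where the ranges overlapped. Csf1r was at 11.6 to 13.6 CPM in the Zeb2os set and 1.90 to 4.89 in the Zeb2 set. P2ry12, P2ry13 and Gpr34 stayed at or under 0.842 CPM in all 8 libraries. Siglech had 2 counts in 1 library and 0 in the other 7, where a count of 0 allows up to 0.0376 to 0.103 CPM by counting error alone.

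**Figure D5:**
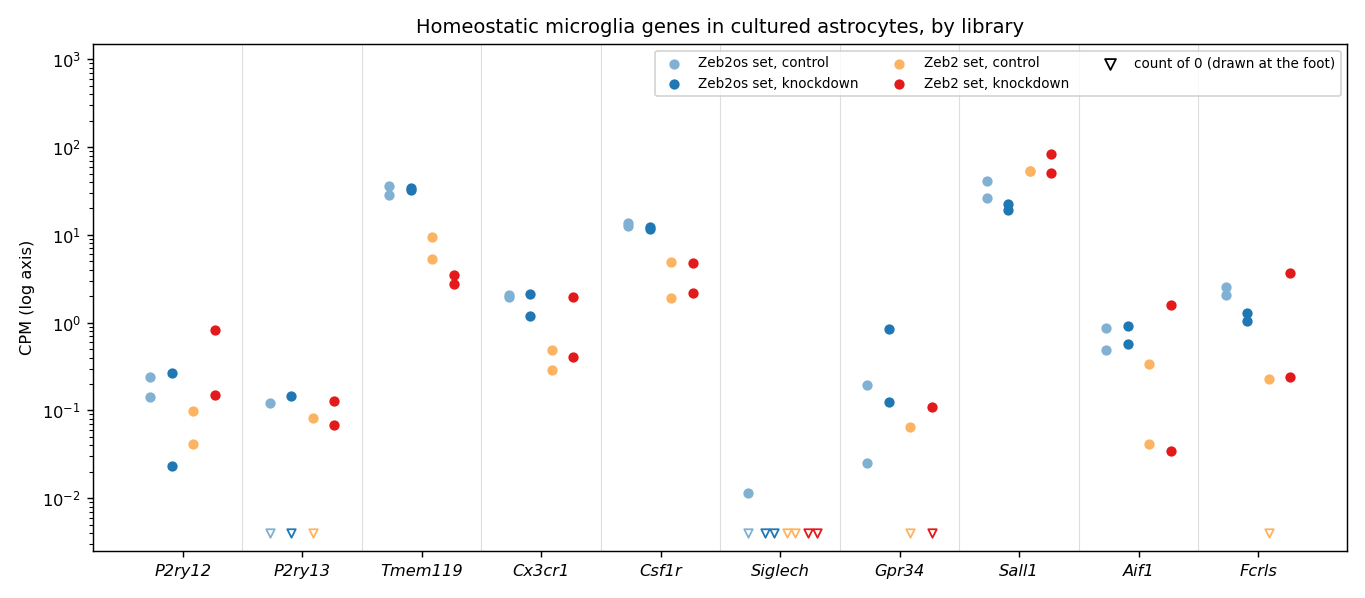
Level of each gene in the 8 culture libraries, in CPM on a log axis; triangles at the foot stand for a count of 0. Tmem119 and Sall1 lie above the other genes in the Zeb2os set, and Siglech has a count in 1 library.

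No member was called after either knockdown. The labels do not say that the 2 libraries of a culture group are separate cultures, so p-values measure only the spread between these samples. Zeb2os itself was at 5.82 and 3.80 CPM in controls and 3.14 and 4.32 in the libraries labelled as its knockdown, which overlap, while Zeb2 was at 147 and 134 CPM in controls and 23.2 and 16.1 in its knockdown. In the Zeb2os set edgeR called 0 of 8 members tested, with 1 at an unadjusted p under 0.05 and 0 by DESeq2, where 0.188% of all genes were called (0.121% higher and 0.0675% lower). Sall1 was that member (−0.70 ± 0.26, edgeR adjusted p = 0.335), lower in both knockdown libraries than in both controls. Its change ran from −0.98 without control replicate 1 to −0.32 without control replicate 2. In the Zeb2 set edgeR called 0 of 6 members tested and 0% of all genes, with 1 member at an unadjusted p under 0.05, and DESeq2 called 0 members. Tmem119 was that member (−1.24 ± 0.46, edgeR adjusted p = 0.999). Fcrls, at 14 and 0 counts in controls and 173 and 7 in the knockdown, was not called (4.05 ± 1.72, edgeR adjusted p = 0.999). Its change ran from 1.03 without knockdown replicate 1 to 9.37 without control replicate 1.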

How the data were processed

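RNA-seq read counts per gene were used as the authors deposited them, in 4 tables of 25 libraries. Per the submitters' processing notes the tools were FastQC, TopHat2 2.1.0, Cufflinks 2.2.1 and DESeq2 with mm10. The sources used here do not give the counter, its annotation or its strand setting. The members and gene lists were chosen with earlier results of these data known. Genes were filtered with edgeR 4.0.16 (minimum count 10), scaled by trimmed mean of M values and tested by quasi-likelihood (R 4.3.3, Benjamini-Hochberg adjusted p under 0.05). The 11 sorted libraries shared a fit, each other table was fitted alone, and sorted and tissue libraries at 1 and 3 months were fitted together with an interaction. Log2 levels used a prior count of 2. Gene positions and exon lengths are from GENCODE on GRCm38. The procedure was tested on simulated data. Alternatives were no filter, DESeq2 1.42.0 and its size factors, the 2 groups alone, a replicate block, each library left out and, chosen after seeing the data, limma 3.58.1 voom with weights by kind of library and a reference of Ctss and the C1q genes. Named are all 10 members, at most 3 of the largest called genes of each other list per comparison, the 10 genes most like the median member and defining markers. Depth is the total count of a library, and limits at a count of 0 cover counting error only. The library kit, per the labels' protocols, marks strand. One gene of the further microglia list, and a reference set that holds it, are not reported here.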

Additional observations from a re-analysis of the deposited data

Results flagged for a closer look

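The difference between the change from 1 to 3 months in sorted cells and that in whole tissue was called for each of the 10 genes. That fit assumes that both kinds of library vary alike. With limma voom and weights by kind of library, Sall1 was not called (adjusted p = 0.0739). The sorted change minus the tissue change (log2, edgeR, 5 sorted and 6 tissue libraries) was 1.47 for P2ry12, 1.58 for P2ry13, 1.93 for Tmem119, 1.72 for Cx3cr1 and 1.84 for Csf1r. It was 2.11 for Siglech, 1.75 for Gpr34, 0.58 for Sall1, 2.07 for Aif1 and 1.90 for Fcrls. With each table fitted alone, the difference was 2.56 (Sall1) to 5.12 (P2ry13) times its own standard error.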

How the results depend on the processing

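Sham replicate 1 and the 2 libraries of sorted cells at 3 months limit the comparisons of sorted cells. In the cultures 2 to 4 members had levels too near 0 to test, although these libraries were deep. With one library left out, the change against sham turned direction for 4 genes at 7 days or 1 month and 1 at 3 months. Its lowest and highest values at 7 days were −0.64 and 0.53 for P2ry12, −0.20 and 0.37 for P2ry13 (0.06 without 7-day replicate 3) and −0.14 and 1.52 for Tmem119. At 1 month they were −0.75 and 0.43 for P2ry12, −0.89 and 0.78 for Tmem119 and −0.64 and 0.68 for Siglech (0.07 without 1-month replicate 1), and at 3 months −0.50 and 0.02 for Sall1. Each highest value is the one without sham replicate 1. Between sorted cells and tissue at 1 month Gpr34 ran from −0.01 (without sorted replicate 3) to 0.46. None of these was called with all libraries, and the cause was not tested.

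The number of members called against sham was 4 at 7 days (7 without the filter, 2 with the groups alone, 2 to 7 with a library left out), 4 at 1 month (2 to 6) and 5 at 3 months (8 without the filter, 3 to 9). From 7 days to 1 month it was 0 (2 without the filter, 3 alone), from 7 days to 3 months 2 (5 without the filter, 5 alone, 0 to 2 with a library left out) and from 1 to 3 months 0 (7 without the filter, 1 by DESeq2, 8 alone). In tissue it was 8 (4 to 9 with a library left out) and between sorted cells and tissue at 1 month 3 (5 by DESeq2, 5 alone, 2 to 6). After Zeb2os knockdown it was 0 and after Zeb2 knockdown 0 (1 without the filter). The number of all genes called moved with the setting too. At 7 days against sham 4440 of 24286 genes were called, 5047 of 32018 without the filter and 2867 of 24012 without 7-day replicate 2. At 3 months 2844 of 24286 were called and 3698 of 32018 without the filter. In tissue 2889 of 19652 were called and 305 of 20407 without 1-month replicate 1. Between sorted cells and tissue at 1 month 11977 of 23259 were called, 12858 of 33963 by DESeq2 and 11805 of 20522 with the groups alone.

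Same-numbered libraries had correlations of deviations of −0.04 to 0.08 in sorted cells and −0.27 to −0.01 in tissue. These share only a number. The values were −0.03 for Zeb2os and 0.39 for Zeb2 cultures, and with 2 numbers per set whether the numbers pair these samples is not known. With a replicate block the members called were 5 at 7 days, 4 at 1 month and 6 at 3 months against sham, 0, 2 and 0 between injured times, 5 in tissue, 0 after Zeb2os and 1 after Zeb2 knockdown, 3 (Tmem119, Siglech and Aif1, all lower, with Cx3cr1 at adjusted p = 0.0553) and 10 between sorted cells and tissue, and 10 for the difference of late changes. Of all genes the block called 4302, 2845 and 2710 of 24286 against sham, 506 of 19652 in tissue and 80 of 17609 after Zeb2 knockdown. Between injured times it called 631, 1229 and 70 of 24286 genes, and after Zeb2os knockdown 554 of 20741. Between sorted cells and tissue it called 11257 of 23259 genes at 1 month and 10476 at 3 months. For the difference of late changes it called 2202 of 23259.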
